A study of Mus musculus with 6 samples.

Results

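Class 3 semaphorins are secreted guidance proteins that are bound by neuropilins and signal into the cell through plexins. Described here are 10 listed genes of this system among 19938 genes measured in mouse lung buds: the ligands Sema3a, Sema3c, Sema3d, Sema3e and Sema3f, the co-receptors Nrp1 and Nrp2, and the plexins Plxnd1, Plxna2 and Plxnc1. They were listed with their differences between the 2 genotypes already known, so those differences are given as a description. Where limma calls among the 10 are counted, they describe the choice and support nothing. Every one of the 10 genes had 1 probe set of its own, and 0 probe sets were shared between a listed gene and another gene.

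Each sample was lung bud tissue dissected at E11.5 from embryos on a mixed background of C57BL/6, 129X1 and 129S1. The control group (3 samples) had the genotype Shhcre, and the DKO group (3 samples) had Shhcre together with Hdac1 fl/fl and Hdac2 fl/fl, so every sample carried Cre. Shhcre drives Cre from the Sonic hedgehog locus, which is active in the lung epithelium, while mesenchyme, vessels and nerves of the bud are not its target. Hdac1 and Hdac2 encode histone deacetylases, and the comparison asked which genes depend on them in lung development. Expression is given as the deposited log2 value, on which a difference of 1 is a doubling.

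Semaphorins were first known as signals that repel or attract growing axons. A neuropilin holds the ligand and a class A plexin passes the signal on, whereas Sema3e can bind Plxnd1 directly without a neuropilin. Vessels and the branching lung use the same proteins. In cultured fetal mouse lung, Sema3A protein has been known to hold back branching, and Sema3C and Sema3F to promote it. Plxnc1 is best known as the receptor of Sema7a, a membrane-anchored semaphorin, and is therefore not a typical class 3 receptor.

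Hdac1 was lower in every DKO sample than in every control. Its log2 value was 11.48, 11.49 and 11.52 in controls 1 to 3 and 11.20, 11.23 and 11.23 in DKO 1 to 3. Hdac2 was at 11.83, 11.69 and 11.81 in the controls and at 11.74, 11.77 and 11.70 in DKO, which overlap. Where on these genes the probes lie was not determined, so neither gene checks the deletion. The correlation between 2 arrays was 0.995 to 0.999 over all genes, and DKO 2 had the widest scatter around its group mean (SD 0.105, against 0.0596 to 0.0867 for the other arrays). The values hold no detection calls, so whether lung markers were detected was not judged from their level.

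The ligands differed from control in opposite directions. Sema3c, Sema3d and Sema3a were higher in every DKO sample than in any control, Sema3e was lower in every DKO sample, and Sema3f overlapped between the groups. The sizes were 1.38-fold to 1.55-fold for the higher ligands and 1.60-fold for the lower one. In whole buds, fewer cells of a type and less RNA per cell cannot be told apart.

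Sema3c, a ligand for both neuropilins that is needed for the outflow tract of the heart, stood at 9.92, 9.94 and 10.07 in controls 1 to 3. It stood at 10.61, 10.50 and 10.71 in DKO 1 to 3. All DKO values lay above all control values, with a gap of 0.43 between the highest control and the lowest DKO. The difference was 0.63 (SE 0.07, 95% interval 0.48 to 0.78, n = 3 per group), or 1.55-fold with an interval of 1.39-fold to 1.72-fold. This was number 37 among all genes ordered by rise.

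Sema3d, an Nrp1 ligand that patterns the pulmonary veins, was almost the same in the controls, at 9.91, 9.90 and 9.92. The DKO values were 10.61, 10.53 and 10.27. DKO 3 was thus the lowest of them, yet it lay 0.36 above the highest control. The SD was 0.17 in DKO and 0.0087 in control, and the difference was 0.56 (SE 0.08, interval 0.38 to 0.75), or 1.48-fold. Without DKO 3 it was 0.66, and with arrays weighted by their quality it was 0.42.

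Sema3a is the prototype of the class, a repellent of axons that acts through Nrp1 and class A plexins. Its log2 value was 10.93, 10.96 and 11.06 in the controls and 11.51, 11.42 and 11.41 in DKO. The groups were separated by 0.36, and the samples within each group lay close together (SD 0.07 in control and 0.06 in DKO). The difference was 0.47 (SE 0.06, interval 0.34 to 0.60), or 1.38-fold.

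Sema3e, the ligand of Plxnd1 that keeps growing vessels in place, went the other way. It stood at 8.35, 8.48 and 8.39 in the controls and at 7.80, 7.63 and 7.76 in DKO. The gap between the groups was 0.55, the widest of the 10 genes. The difference was -0.68 (SE 0.06, interval -0.82 to -0.53), or 1.60-fold lower with an interval of 1.45-fold to 1.77-fold, and was number 44 among all genes ordered by fall.

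Sema3f, the main ligand of Nrp2, was at 9.70, 9.70 and 9.65 in the controls and at 9.56, 9.67 and 9.71 in DKO. DKO 3 was the highest sample and DKO 1 the lowest, so the groups overlapped. The difference was -0.04 (SE 0.06, interval -0.17 to 0.08), which leaves room for a change of up to 1.12-fold down or 1.06-fold up.

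**Figure D1:**
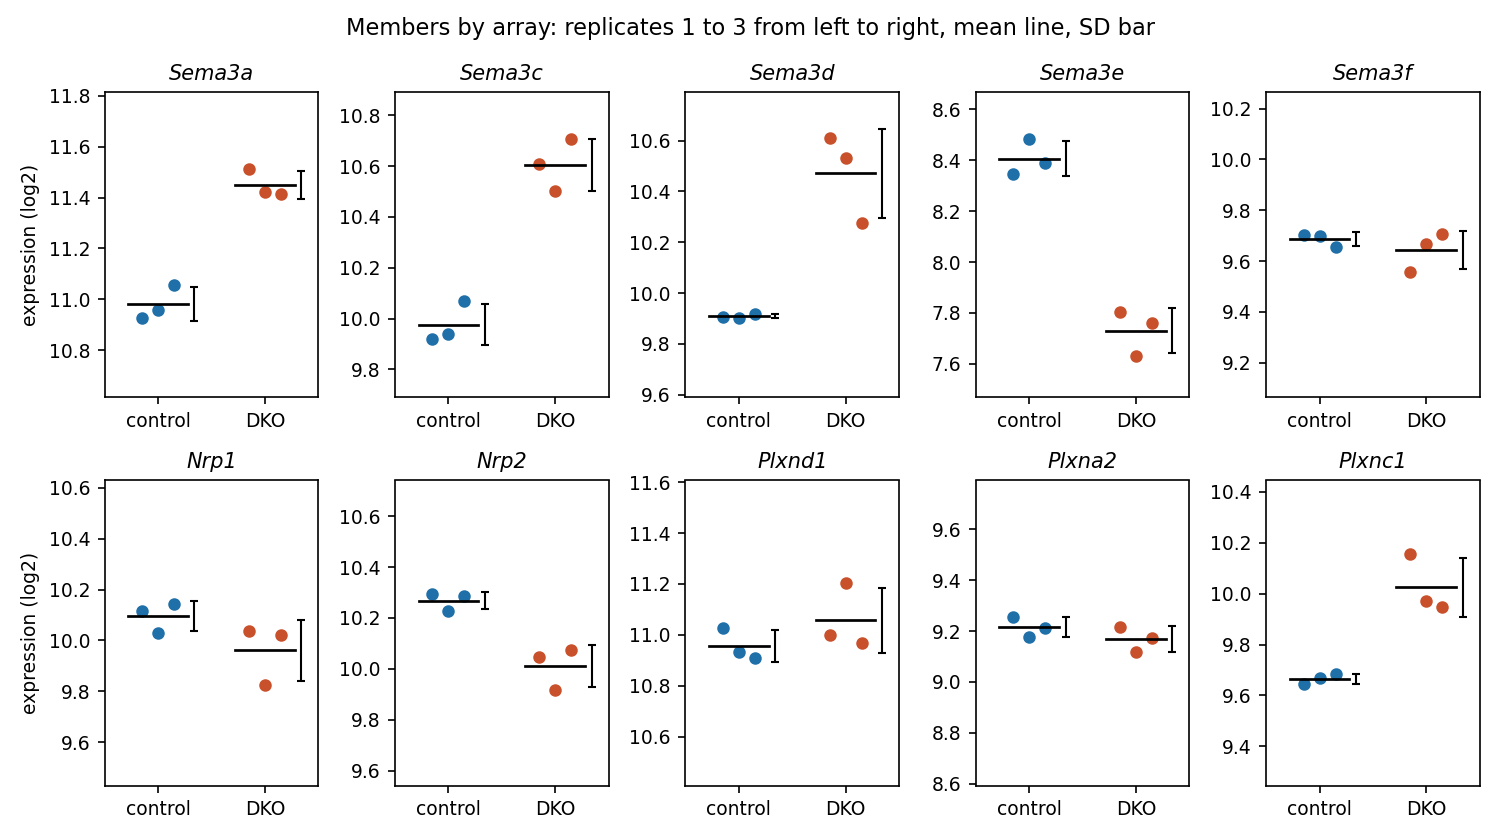
Log2 expression of each of the 10 genes by array, with controls in blue and DKO in orange, replicates 1 to 3 from left to right, a line at the group mean and a bar of 1 SD (n = 3). Each panel spans the same range of log2 units around its own mean, and the groups are apart for Sema3a, Sema3c, Sema3d, Sema3e, Nrp2 and Plxnc1.

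Of the receptors, Nrp2 and Plxnc1 were separate between the groups, and Nrp1, Plxnd1 and Plxna2 overlapped. Nrp2, the co-receptor for Sema3c and Sema3f and for the lymphatic growth factor Vegfc, stood at 10.29, 10.23 and 10.28 in the controls and at 10.04, 9.92 and 10.07 in DKO. Every DKO value was below every control, by at least 0.15. The difference was -0.26 (SE 0.06, interval -0.39 to -0.13), or 1.19-fold lower.

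Nrp1, the co-receptor for Sema3a and for Vegfa, was at 10.12, 10.03 and 10.14 in the controls and at 10.04, 9.82 and 10.02 in DKO. DKO 1 lay within the control range, and DKO 2 was the lowest sample. The difference was -0.14 (SE 0.07, interval -0.29 to 0.02), and without DKO 2 it was -0.07.

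Plxnd1, the plexin of vessels that binds Sema3e, stood at 11.03, 10.93 and 10.91 in the controls and at 11.00, 11.20 and 10.97 in DKO. Only DKO 2 lay outside the control range. The difference was 0.10 (SE 0.07, interval -0.06 to 0.26), and it was 0.03 without DKO 2.

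Plxna2, a class A plexin that serves neuropilin-bound ligands, was at 9.26, 9.18 and 9.21 in the controls and at 9.22, 9.12 and 9.17 in DKO. The groups overlapped, and the difference was -0.05 (SE 0.05, interval -0.17 to 0.07). Plxnc1 stood at 9.65, 9.67 and 9.68 in the controls and at 10.16, 9.97 and 9.95 in DKO. Each DKO sample was above each control by at least 0.26, and DKO 1 was the highest. Its difference was 0.36 (SE 0.06, interval 0.21 to 0.50), or 1.28-fold.

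Of the 10 genes, 5 had an adjusted p under 0.05 in the limma fit over all genes, 4 of them higher in DKO and 1 lower. Over all genes this share was 2.41%, with 1.03% higher and 1.38% lower. The 5 were Sema3a, Sema3c, Sema3d and Plxnc1, which were higher, and Sema3e, which was lower. Control and DKO values did not overlap for 6 of the 10, against 18.8% of all genes. They were higher in DKO for 4 of these and lower for 2, against 8.36% and 10.4% of all genes. Because the genes were chosen on this contrast, these counts describe the choice and support nothing. The median difference over the 10 genes was 0.03, against 0.00 over all genes, since higher and lower members balanced. Without control 2 the count of 5 became 3, with Sema3d and Plxnc1 no longer called, and Plxnc1 was also not called without control 1 or without control 3. Nrp2 was not called, but was under 4 of the 15 alternative settings.

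The promoters of the ligands with the largest rise and the largest fall are shown because they differ in base composition while both end at the outermost annotated start of their gene. They are the 250 bases before the start of transcription on the plus strand, from RefSeq on GRCm38.p6, with each CG dinucleotide in capitals. That of Sema3c lies at chr5:17574566-17574815 and that of Sema3e at chr5:14025026-14025275.
Sema3c: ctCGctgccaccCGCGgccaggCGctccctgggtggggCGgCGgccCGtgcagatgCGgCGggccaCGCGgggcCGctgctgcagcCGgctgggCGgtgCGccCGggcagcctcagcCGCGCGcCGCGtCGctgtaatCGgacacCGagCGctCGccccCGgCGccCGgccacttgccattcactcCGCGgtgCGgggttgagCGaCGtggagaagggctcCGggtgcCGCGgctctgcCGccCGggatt
Sema3e: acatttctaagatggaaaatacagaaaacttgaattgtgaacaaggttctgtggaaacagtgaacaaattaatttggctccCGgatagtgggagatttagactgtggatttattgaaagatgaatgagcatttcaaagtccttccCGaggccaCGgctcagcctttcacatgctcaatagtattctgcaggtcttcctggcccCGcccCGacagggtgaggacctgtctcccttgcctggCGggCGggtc
The Sema3c promoter held 39 CG dinucleotides and was 78.4% G or C, and 98.4% of the 32851 promoter windows of this length held fewer CG dinucleotides. The Sema3e promoter held 7, close to the median of 6, at 48.0% G or C. The windows of the other higher ligands held 4 (Sema3d) and 2 (Sema3a), so the 3 higher ligands lay on both sides of Sema3e in this count. For both Sema3a and Sema3d, another annotated transcript begins further upstream, so these windows do not end at the outermost start. The motif GGGCGG, read on both strands, occurred 3 times in the Sema3c window, 2 times in that of Sema3e and 0 times in those of Sema3a and Sema3d, and 32.7% of all windows held it. The motif TATAAA, read on both strands, occurred in 0 of the 9 windows found for the listed genes, against 12.4% of all windows. Sema3f was not among the windows.

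The ligands that differed most between the genotypes all lie on chromosome 5. Their promoter windows run from chr5:12382916-12383165 (Sema3d) to chr5:17574566-17574815 (Sema3c), so neighbours are meant here by order and not by distance. Among measured protein-coding genes in RefSeq order, Sema3d and Sema3a are direct neighbours, Speer3 separates Sema3a from Sema3e, and Pclo, Cacna2d1 and Hgf separate Sema3e from Sema3c. Of these 4 genes in between, limma called 0 over all genes, and 1 had an unadjusted p under 0.05. That gene was the calcium channel subunit Cacna2d1 (0.30, SE 0.07, adjusted p = 0.0883). Pclo (-0.02), Speer3 (-0.01) and Hgf (0.00), which encodes hepatocyte growth factor, stood near 0. Gnai1, a G protein subunit gene beyond Sema3c, was lower (-0.34, SE 0.06, adjusted p = 0.0217 by limma). Of the 32 genes that are the nearest 2 on each side of any listed gene, limma called 0 higher and 1 lower. Over all genes the shares called were 1.03% higher and 1.38% lower, so so small a count says nothing particular about the neighbours. The neighbour called lower was Lamb3, a laminin chain gene beside Plxna2 (-0.40, SE 0.06, adjusted p = 0.00917 by limma). These neighbours were looked up after the differences were seen.

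**Figure D2:**
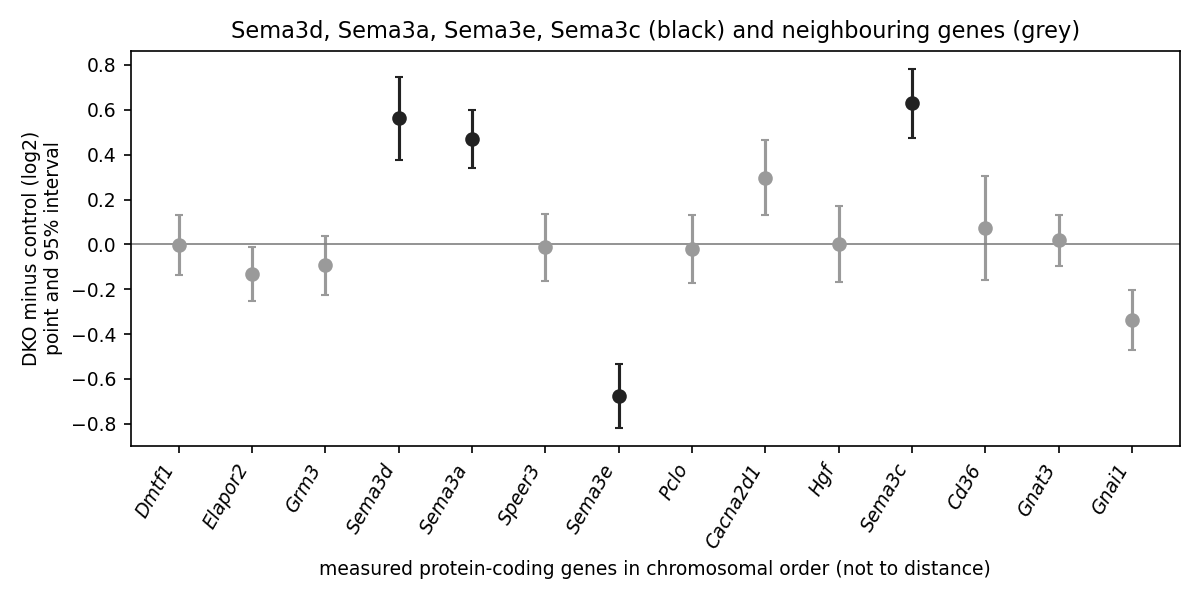
DKO minus control difference (log2, point and 95% interval, n = 3 per group) for 14 measured genes in chromosomal order, with the ligands in black and their neighbours in grey. Sema3d, Sema3a and Sema3c lie at 0.47 to 0.63 and Sema3e at -0.68, while the 4 genes between them lie at -0.02 to 0.30 and Gnai1, at the right edge, at -0.34.

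Array profiles closest to those of the extreme ligands were found by the Euclidean distance of centred log2 values over the 6 arrays. The nearest to Sema3c were Dmc1, a recombinase of meiosis (distance 0.13), Rb1, the retinoblastoma cell cycle regulator (0.17), and Dgkk, a diacylglycerol kinase (0.17). Rb1 stood at 9.02, 9.16 and 9.27 in the controls and at 9.73, 9.52 and 9.79 in DKO. As for Sema3c, control 3 was the highest control and DKO 2 the lowest DKO sample. The nearest to Sema3e were Pcbd1, a dimerization cofactor of Hnf1 (0.11), Edn3, which encodes endothelin 3 (0.12), and Eya1, a transcriptional coactivator of organ buds (0.13). Edn3 stood at 8.93, 9.03 and 8.92 in the controls and at 8.31, 8.20 and 8.42 in DKO. As for Sema3e, control 2 was the highest sample and DKO 2 the lowest. With 6 arrays in 2 groups, such likeness rests mostly on the difference between the groups.

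Of 68 further measured genes of the semaphorin system, limma called 0 higher and 1 lower at an adjusted p under 0.05. This was a share of 1.47%, against 2.41% of all genes. Of the 68 differences, 40 were above 0 and 28 below. Control and DKO values did not overlap for 18 of the 68, 12 higher and 6 lower in DKO. Over all genes the share was 18.8%, with 8.36% higher and 10.4% lower. As shares of the 68, the 18 and the 12 lay above these values and the 6 below, and the cause was not tested. Without adjustment, 14 of the 68 had a p under 0.05, which is 20.6% against 12.8% of all genes. The median difference was 0.01, against 0.00 for all genes, and the values ran from -0.43 to 0.29.

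The gene called lower was Dpysl4, a collapsin response mediator protein of the family that carries the Sema3a signal to the cytoskeleton. It stood at 9.04, 9.14 and 9.09 in the controls and at 8.60, 8.62 and 8.75 in DKO, with no overlap. The difference was -0.43 (SE 0.06, interval -0.56 to -0.30, limma adjusted p = 0.00622), or 1.35-fold lower, and its call held under each of the 15 alternatives (adjusted p = 0.00117 to 0.0449). It was the 1 called among 24 cytoplasmic effectors, whose median was -0.01.

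Among the other ligands, 0 of 2 class 3 members and 0 of 13 semaphorins of other classes were called by limma, against 1 and 4 with an unadjusted p under 0.05. Sema3b, the remaining ligand beside Sema3g, was at -0.20 (SE 0.06, adjusted p = 0.169), with every DKO sample below every control. Sema3g was at 0.07 (SE 0.06, adjusted p = 0.747). Sema5a, a transmembrane semaphorin with thrombospondin repeats, was at -0.27 (SE 0.07, adjusted p = 0.0960), also with every DKO sample below every control. Sema7a, the ligand of Plxnc1, was at 0.15 (SE 0.06, adjusted p = 0.367), with every DKO sample above every control. Receptor and ligand thus had the same direction, but only the receptor was called. Whether they differ was not tested.

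Limma called 0 of 6 further plexins, against 1 with an unadjusted p under 0.05. The largest values were 0.19 for Plxna4, a receptor for Sema3a with Nrp1 (SE 0.06, adjusted p = 0.196), and -0.14 for Plxnb1, the receptor of Sema4d (SE 0.08, adjusted p = 0.562). Of 10 co-receptors that partner neuropilins or plexins, 0 were called by limma and 1 had an unadjusted p under 0.05. They were led by the hepatocyte growth factor receptor Met (-0.16, SE 0.07, adjusted p = 0.352) and the adhesion protein gene Nrcam (0.13, SE 0.07, adjusted p = 0.496).

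Growth factors and proteases of the system gave 0 calls by limma among 6 and 7 genes, against 1 and 2 with an unadjusted p under 0.05. Vegfa, which competes with semaphorins for neuropilin, was at 0.14 (SE 0.06, adjusted p = 0.317). Vegfd was at 0.13 (SE 0.15, adjusted p = 0.813), and turned negative without DKO 1. Pcsk6, a proprotein convertase of the kind that cuts and activates semaphorins, stood at 8.74, 8.63 and 8.69 in the controls and at 9.04, 9.01 and 8.86 in DKO. The groups did not overlap, and the difference of 0.29 (SE 0.06, adjusted p = 0.0531) lay just beyond the threshold, passing it under 5 of 15 alternatives (adjusted p = 0.0270 to 0.220 over all 15). The sheddase gene Adam17 was at 0.15 (SE 0.06, adjusted p = 0.352).

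**Figure D3:**
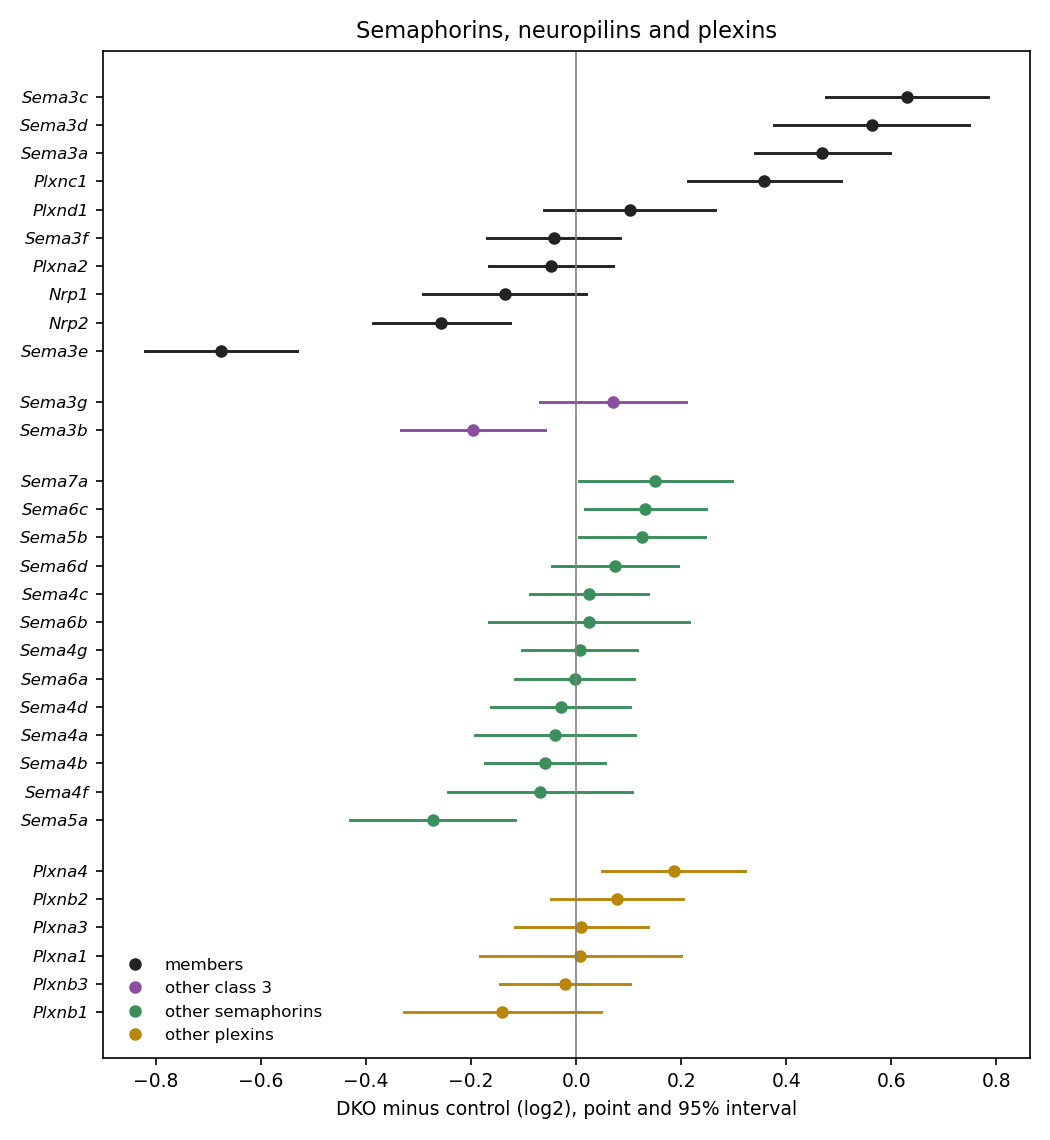
DKO minus control difference (log2, point and 95% interval from limma, n = 3 per group) for the 10 listed genes and for the other class 3 semaphorins, other semaphorins and other plexins. Among the plotted genes outside the list the values stay between -0.27 and 0.19, while the listed ones run from -0.68 to 0.63. The listed genes were chosen with their differences known, so their wider range describes the choice and supports nothing.

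Markers of several cell types moved between the same samples. A marker is said to rise or fall only where limma called it at an adjusted p under 0.05. By this rule 1.03% of all genes rose and 1.38% fell. Of 15 lung epithelium markers, 9 fell and 0 rose, among them Rab25 (-0.89), Krt18 (-0.86) and Foxa1 (-0.69), and the list mean was 9.51 to 9.61 in the controls and 9.04 to 9.18 in DKO. The fall of this list ran alongside the lower values of Sema3e and Nrp2, as did the lower means of the smooth muscle and macrophage lists. With 2 groups, any list that is lower in DKO does so, and a link was not tested. Of 8 smooth muscle markers, 6 fell and 1 rose, with Actg2 at -0.70, and the list mean was 9.47 to 9.60 in the controls and 9.08 to 9.27 in DKO. Without single arrays, the epithelial calls became 6 to 10, with 6 without control 2 or 3. The 7 smooth muscle calls became 2 without control 1, 0 without control 2 or 3 and 3 without DKO 3. Actg2 was not called without control 1, 2 or 3 (adjusted p = 0.0570 to 0.0813 by limma).

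The cardiac and mesothelium lists had higher means in DKO, alongside Sema3a, Sema3c, Sema3d and Plxnc1. Of 8 cardiac markers, Myl7 (0.80) rose, with a list mean of 8.25 to 8.32 in the controls and 8.50 to 8.67 in DKO. All 8 differences were above 0, and 5 had an unadjusted p under 0.05 by limma, against 12.8% of all genes. Without DKO 2 the 1 call became 3. Among 8 mesothelium markers, Upk1b (0.47) and Gpm6a (0.42) rose and Krt7 (-0.61) fell. The list mean was 8.80 to 8.84 in the controls and 8.86 to 8.93 in DKO. Its differences were mixed, with 5 above 0, 3 below and a median of 0.08. Gpm6a was not called without control 1, 2 or 3 or DKO 3 (adjusted p = 0.0643 to 0.129 by limma), and Krt7 was not called without control 2 or 3 (0.0792 and 0.0593). Of 12 mesenchyme markers, Fgf10 (1.05) and Meox2 (0.63) rose and Twist2 (-0.28) fell. This list had no common direction, since 8 of its 12 differences were below 0 and their median was -0.05, while its mean was 10.36 to 10.39 in the controls and 10.41 to 10.48 in DKO. Twist2 was called without DKO 2 but not without any other array (adjusted p = 0.0505 to 0.187 by limma), nor with the replicate number as a block (0.0869).

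Endothelial and neural markers, of cell types that use this system, were not called. The 12 endothelium markers had 0 calls by limma and 2 with an unadjusted p under 0.05 (16.7%, against 12.8% of all genes), led by Tek (0.20). Yet 10 of their 12 differences were above 0 and 2 below, with a median of 0.13. Their mean was 9.48 to 9.53 in the controls and 9.52 to 9.66 in DKO, which overlap. The 10 measured neural crest and neuron markers had 0 calls by limma and 3 with an unadjusted p under 0.05 (30%), led by Ret (-0.28). Of their differences, 3 were above 0 and 7 below, and their mean overlapped, at 7.77 to 7.96 and 7.74 to 7.93. The 8 macrophage markers had 0 calls by limma and 5 with an unadjusted p under 0.05 (62.5%, against 12.8% of all genes), led by Tyrobp (-0.30). Of their differences, 7 were below 0 and 1 above, and without DKO 1 limma called 1 marker lower. The mean of this list was lower on every DKO array (7.94 to 8.06, against 8.13 to 8.19 in the controls), alongside Sema3e and Nrp2. The part of these cell types in the differences of the semaphorin genes was not tested.

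**Figure D4:**
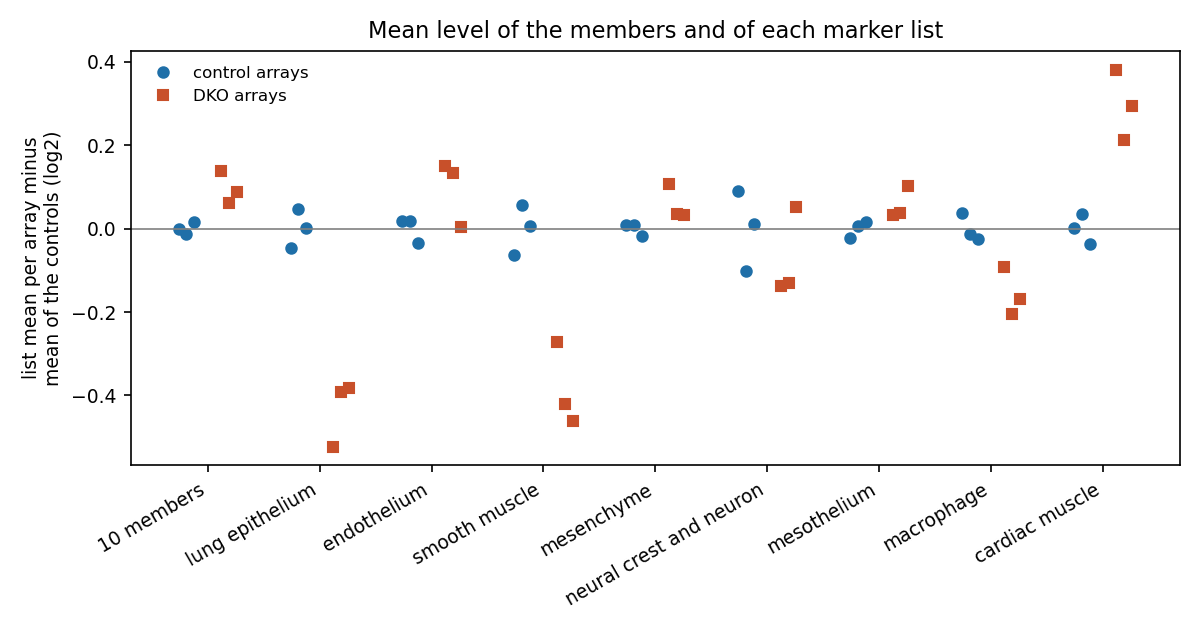
Mean log2 level of the 10 listed genes and of each marker list on every array, as a difference from the mean of the 3 controls, with controls as blue circles and DKO as orange squares. The lung epithelium and smooth muscle lists are lower on all 3 DKO arrays, the cardiac list is higher on all 3, and the neural crest and neuron list overlaps.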

How the data were processed

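RNA from 6 samples, 100 ng each, was labelled with biotin and hybridised to Affymetrix MoGene 1.1 ST arrays, per the labels. The deposited table held 1 log2 value for each of 35556 probe sets per array. Per the submitters' processing notes the authors used oligo, RMA and limma, with no version given. The log base is not written in the table and was read from RMA's usual output and the range of 3.42 to 14.27. RMA makes the arrays' distributions alike, so a change common to all genes is not visible.

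Probe sets with exactly 1 symbol in the platform annotation (21789) were reduced to the brightest per gene, by the mean over the 6 arrays. Entrez identifiers matched RefSeq for 19856 of 19938 genes, and 0 symbols changed. Groups followed the sample titles. The labels call the samples biological replicates without naming embryos or pools, so the p-values rest on sample-to-sample spread that may be technical, and 3 arrays per group limit the precision.

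DKO was compared with control by limma 3.58.1 in R 4.3.3 (lmFit, eBayes, two-sided, group as the only term), with Benjamini-Hochberg adjustment over all 19938 genes and a threshold of 0.05. The script was tested on simulated data. The genes and lists were chosen with earlier results of these data known. Named outside the list were the called genes of the system, or the 2 largest differences of a list with none, up to 3 genes per marker list, and the 3 nearest profiles of the extreme ligands. Of the effectors, Pak1 was not analysed here, and some listed genes are not reported here. The 15 alternatives covered the design, eBayes settings, array weights, normalization, dim genes, probe choice and each array left out.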

Additional observations from a re-analysis of the deposited data

How the results depend on the processing

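Under the 15 alternatives, 1 of 150 recomputed differences of the 10 listed genes moved by 1 SD or more (Sema3d at 0.42 with array weights), and 0 of the called ones changed sign. The median over the 10 ranged from 0.00 to 0.07 without single arrays. Sema3a, Sema3c and Sema3e were called under all 15. Sema3d was not called without control 2 or with all probe sets tested, nor was Plxnc1 without any 1 control or with all probe sets tested. The 5 calls among the listed genes became 3 with all probe sets tested and 3 to 5 without single arrays. Because these genes were chosen on this contrast, calls that held are no support for them. The 481 calls over all genes became 725 with an intensity trend, 2003 with array weights, 148 with all probe sets tested, and 197 to 811 without single arrays (197 without control 2, 215 without control 1 or 3, 317 without DKO 3 and 811 without DKO 2). The 1 call in the wider system became 3 with an intensity trend, 5 with array weights, 2 with a further quantile normalization, 2 without the dimmest 30% of genes, and 1 to 2 without single arrays. Vegfd turned to -0.0645 with array weights, and ranged from -0.0693 (without DKO 1) to 0.26 (without DKO 3) without single arrays. The cause of these changes was not tested, and a fit without an array also has fewer arrays.

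With the replicate number as a block, the calls over all genes were 406, those among the listed genes 5 and those in the wider system 1. Same-numbered arrays correlated at -0.06, 0.05 and 0.16 in their deviations from the group means, and not every array correlated best with its own number, so the numbers were not taken to pair the samples. The 3 arrays per group limit what can be detected, and no measure of signal over background was used.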
